A study of Mus musculus with 4 samples.

Results

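The genes described here are 10 genes of the mammalian circadian clock and of the basic helix-loop-helix repressors tied to it, *Clock*, *Per1*, *Per2*, *Per3*, *Cry1*, *Cry2*, *Nr1d1*, *Dbp*, *Bhlhe40* and *Bhlhe41*. They were taken by gene symbol from the 39179 Ensembl genes in the count files, and all 10 were found. No measured value served as a criterion, but the choice was made with earlier results of these data known. RNA-seq was carried out on 4 libraries of B16F1, a mouse melanoma cell line. Of these, 2 were parental B16F1 cells, the control, which are usually grown on rigid dishes. The other 2 were tumor repopulating cells (TRCs), taken on day 5 from the spheroids that singly seeded B16F1 cells form inside soft 3D fibrin gels (90 Pa stiffness). The gel, the growth as spheroids and the selection of cells that grow there all separate TRCs from parental cells, so their parts in a difference cannot be told apart. The hour of collection is not given in the sources used here, and without it a shift in daily phase and a change of the daily mean level cannot be told apart either.

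The clock is a transcriptional feedback loop that runs in nearly every cell. CLOCK pairs with BMAL1 (the product of *Arntl*) and activates genes through E-boxes, among them the *Per* and *Cry* genes, whose proteins return to the nucleus and inhibit the pair. NR1D1 (REV-ERBα) represses *Arntl* while RORA activates it, DBP drives a set of output genes through D-boxes, and BHLHE40 and BHLHE41 compete for E-boxes and repress them. *Bhlhe40* and *Bhlhe41* are also known as genes that hypoxia-inducible factors activate, and *Bhlhe40* as a target of the melanocyte factor MITF.

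Stretches of the promoters are shown first, since the proteins made by several of these genes bind elements in the promoters of the others. RefSeq promoter windows (GRCm38.p6, from 250 bases before to 50 bases after an annotated start) were found for 8 of the 10 genes. No window was found for *Per2* or *Bhlhe40*, so their promoters were not searched for any element. The 8 genes had 11 windows, since *Clock* and *Per1* had multiple starts. The D-box TTATGTAA, the element of DBP and its relatives, was present in 0.938% of all 32851 windows, counting both strands. Among the 11 windows it was present in that of *Per3*, at 2 positions that begin 205 and 158 bases before the start. The stretch lies on the minus strand at chr4:151044791-151044895, and capitals mark the D-boxes.
Per3: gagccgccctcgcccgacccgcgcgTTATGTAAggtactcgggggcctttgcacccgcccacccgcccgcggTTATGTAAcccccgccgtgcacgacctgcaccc

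The E-box CACGTG, which both CLOCK and the BHLHE40/41 repressors bind, was present in 7.15% of windows. It was found in 3 of the 11 windows, of *Per1* (chr11:69098758-69098813, plus strand), *Cry1* (chr10:85185084-85185139, minus strand) and *Bhlhe41* (chr6:145865543-145865598, minus strand). It began 166, 60 and 153 bases before the start of the window's transcript. The 3 stretches show the element in its context, and capitals mark the E-box.
Per1: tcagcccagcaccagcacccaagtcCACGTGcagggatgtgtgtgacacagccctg
Cry1: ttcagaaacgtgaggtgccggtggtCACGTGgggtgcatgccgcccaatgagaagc
Bhlhe41: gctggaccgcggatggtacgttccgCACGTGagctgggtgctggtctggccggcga

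The core ACGTG, which is shared by E-boxes and by many hypoxia response elements, was present in 19.6% of all windows and in 6 of these 11. Each E-box contains it. Outside an E-box it was found in *Dbp*, *Cry2* and *Nr1d1* and at a further position in *Cry1*. The stretch of *Dbp* (chr7:45704997-45705049, plus strand) is shown because this gene rose, with the core in capitals, 227 bases before the start.
Dbp: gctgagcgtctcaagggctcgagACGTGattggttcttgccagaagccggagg
The ROR element core AGGTCA (16.3% of windows) was found in 2 of the 11 windows, of *Clock* and *Per1*. The cAMP response element TGACGTCA (1.79% of windows) was found in 0 of the 11. A match describes letters in a window and no binding was measured.

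The libraries held between 35948295 and 43511554 counts on genes. The melanocyte markers *Mitf*, *Sox10*, *Dct*, *Pmel*, *Tyr*, *Tyrp1* and *Mlana* were found in every library, with a summed level between 15712 and 26669 CPM (counts scaled to library size, adjusted with edgeR's TMM factors). *Dct* was higher in TRCs (log2 fold change 1.08, FDR = 0.000307), while *Tyr* (1.14, FDR = 0.0593) and *Pmel* (0.45, FDR = 0.202) did not pass the test. Of 5 leukocyte markers, 4 (*Ptprc*, *Adgre1*, *Itgam*, *Cd3e*) had 0 counts in all libraries, which allows up to 0.085 CPM in the shallowest, and the list summed to between 1.59 and 4.12 CPM, all of it *Cd68*. The sums were between 1.23 and 2.12 CPM for 5 fibroblast markers and between 0.0481 and 0.198 CPM for 4 endothelial markers.

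Of the 10 genes, 9 had more than 1 CPM in all 4 libraries and were tested among 11483 genes, and *Per2* was below the filter in all 4. In edgeR's exact test, 3 of the 9 rose in TRCs at a Benjamini-Hochberg FDR under 0.05 (*Bhlhe40*, *Per3* and *Dbp*), where 8.81% of all genes tested did. None of the 9 was lower at that threshold, where 7.05% of all genes were. An unadjusted p under 0.05 was found for 5 of the 9 genes, these 3 with higher values, *Per1* and, with lower values, *Clock*, and for 28.0% of all genes. DESeq2's Wald test called *Clock* lower (FDR = 0.0326), as it did 8.24% of all genes. The groups did not overlap in any of the 9 genes, which was also the case for 60.6% of all genes tested. In 6 of the 9 both TRC libraries were the higher ones (30.2% of all genes) and in 3 the lower ones (30.4%). The log2 fold changes ran from −0.55 to 1.92 with a median of 0.33, beside 0.0034 for all genes. An RNA level that differs because fewer cells carry the transcript and one that differs because each cell holds less cannot be told apart in bulk RNA.

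**Figure D1:**
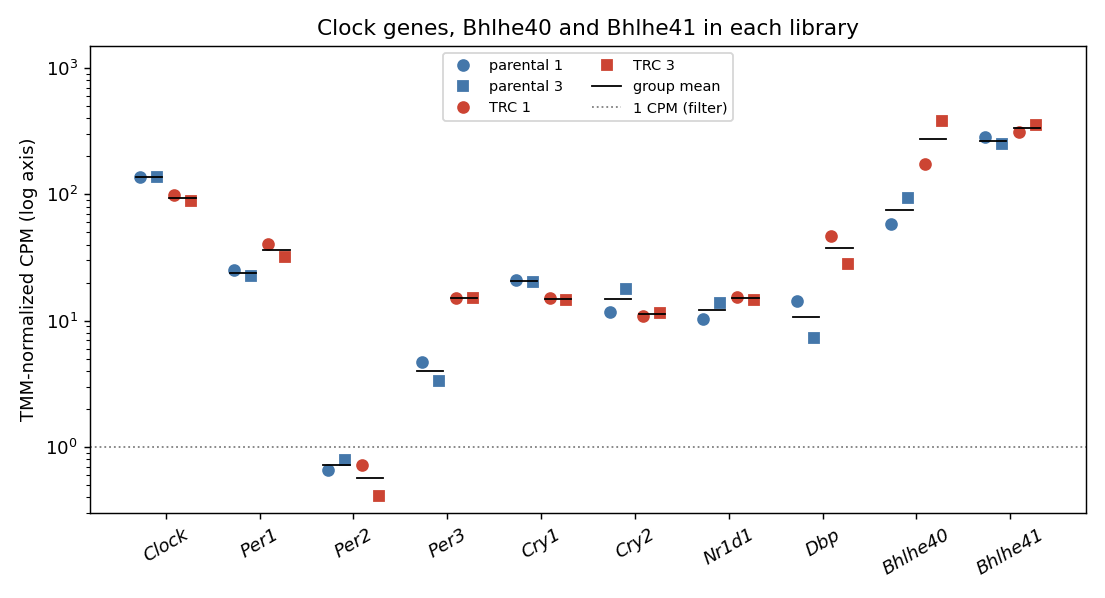
TMM-normalized CPM (log axis) of each of the 10 genes in the parental (blue) and TRC (red) libraries, with circles for replicate 1, squares for replicate 3, black bars for group means and a dotted line at 1 CPM. *Per3*, *Dbp* and *Bhlhe40* show the widest gaps between the groups, and *Per2* lies under 1 CPM throughout.

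Among the E-box repressors, *Bhlhe40* (ENSMUSG00000030103, chromosome 6 from 108660629 to 108666925, plus strand) was at 57.9 and 93.5 CPM in parental replicates 1 and 3, and at 175 and 380 CPM in TRC replicates 1 and 3. Both TRC libraries lay above both parental libraries, but each pair was spread widely, by 1.62-fold in parental cells and 2.17-fold in TRCs. The means were 75.7 ± 25.2 CPM (SD, n = 2) and 277 ± 145 CPM (SD, n = 2), a 3.66-fold rise (log2 fold change 1.87, SE 0.36, FDR = 8.98e-06). The size of the rise rested in part on TRC replicate 3, without which the log2 fold change was 1.2 (FDR = 0.00809). Its lowest TRC level was 1.87 times its highest parental level.

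*Bhlhe41* (ENSMUSG00000030256, chromosome 6 from 145858243 to 145865558, minus strand), the close relative of *Bhlhe40*, was at 283 and 251 CPM in parental replicates 1 and 3 and at 315 and 357 CPM in TRC replicates 1 and 3. The TRC libraries were again the higher ones, by a narrow gap of 1.11-fold between the nearest libraries. The log2 fold change was 0.33 (FDR = 0.357), with a 95% interval from −0.052 to 0.72, so a rise of the size seen for *Bhlhe40* lies outside it. Per kilobase of exon, *Bhlhe41* stood at 3.42 and 1.88 times *Bhlhe40* in parental replicates 1 and 3, and at 1.26 and 0.659 times in TRC replicates 1 and 3. The balance of the pair thus moved toward *Bhlhe40* in both TRC libraries, and in 1 of them *Bhlhe40* was the more abundant transcript.

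The *Per* genes encode part of the inhibitory arm of the loop, and of the 3 *Per3* passed the test. *Per3* (ENSMUSG00000028957, chromosome 4 from 151003652 to 151044665, minus strand) was at 4.68 and 3.34 CPM in parental replicates 1 and 3 and at 15.2 CPM in both TRC libraries. The 2 TRC values were nearly equal and the lowest was 3.25 times the highest parental value, the widest gap of the 10 genes. The means of 4.01 ± 0.94 CPM (SD, n = 2) and 15.2 ± 0.0095 CPM (SD, n = 2) gave a 3.79-fold rise (log2 fold change 1.92, SE 0.33, FDR = 3.63e-05). The lowest count behind these values was 118, a counting error of 9.21%. Both TRC libraries had 633 counts, so the SD of the TRC pair lies below counting error and does not measure precision. The call did not rest on 1 library, since leaving any of them out gave log2 fold changes between 1.70 and 2.19 with FDR values up to 0.0071.

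*Per1* (ENSMUSG00000020893, chromosome 11 from 69095217 to 69109960, plus strand), which also responds acutely to cAMP and glucocorticoid signals, was at 25.2 and 22.4 CPM in parental replicates 1 and 3 and at 40.3 and 32.2 CPM in TRC replicates 1 and 3. All TRC values were above the parental ones, by 1.28-fold between the nearest libraries. The log2 fold change of 0.61 (95% interval 0.13 to 1.09) did not pass the test over all genes (FDR = 0.0969). *Per2* (ENSMUSG00000055866, chromosome 1 from 91415982 to 91459324, minus strand) had 29 and 28 counts in the parental libraries, and 30 and 17 in those of TRCs. These counts were above the floor of 3 counts but correspond to between 0.409 and 0.794 CPM, and the groups overlapped. Without the filter its log2 fold change was −0.38 (FDR = 0.912 over 19571 genes). Within each library *Per1* exceeded *Per2* per kilobase of exon by 29.3- to 82.0-fold, and *Per3* stood at 0.109 and 0.0875 of *Per1* in parental cells and at 0.222 and 0.277 in TRCs.

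The cryptochromes, the partners of the PER proteins in repression, both had lower values in TRCs. *Cry1* (ENSMUSG00000020038, chromosome 10 from 85131700 to 85185064, minus strand) was at 21.1 and 20.2 CPM in parental replicates 1 and 3 and at 15.1 and 14.6 CPM in TRC replicates 1 and 3. Replicates differed by 1.05-fold or less while the nearest libraries of the 2 groups differed by 1.33-fold, yet the model across genes did not call it (log2 fold change −0.48, 95% interval −0.96 to 0.014, FDR = 0.313). *Cry2* (ENSMUSG00000068742, chromosome 2 from 92403646 to 92434043, minus strand) was at 11.6 and 17.9 CPM in parental replicates 1 and 3 and at 11.0 and 11.4 CPM in TRC replicates 1 and 3. Here the parental libraries differed by 1.53-fold and parental replicate 1 was 1.02-fold above the nearest TRC library. The log2 fold change of −0.39 (FDR = 0.505, 95% interval −1.03 to 0.24) was −0.053 without parental replicate 3. The ratio of the 2 genes overlapped between the groups, with *Cry1* per kilobase at 3.43 and 2.14 times *Cry2* in parental replicates 1 and 3 and at 2.61 and 2.41 times in TRC replicates 1 and 3.

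In the activating arm, *Clock* (ENSMUSG00000029238, chromosome 5 from 76209868 to 76304792, minus strand) was at 138 CPM in both parental libraries and at 99.3 and 89.4 CPM in TRC replicates 1 and 3. The lowest parental level was 1.39 times the highest TRC level, and neither group spread by more than 1.11-fold. The log2 fold change was −0.55 (95% interval −0.93 to −0.17), with FDR = 0.0746 in the exact test. *Arntl*, which encodes the partner BMAL1, was at 15.9 and 13.7 CPM in parental replicates 1 and 3 and at 18.2 and 21.7 CPM in TRC replicates 1 and 3 (log2 fold change 0.43, FDR = 0.392). The ratio of *Arntl* to *Clock* per kilobase of exon was 0.21 and 0.182 in parental cells and 0.335 and 0.442 in TRCs, without overlap. *Npas2*, which can stand in for *Clock*, had between 0 and 10 counts per library and was not tested.

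The output gene *Dbp* (ENSMUSG00000059824, chromosome 7 from 45705088 to 45710203, plus strand), which encodes a D-box activator, was at 14.3 and 7.26 CPM in parental replicates 1 and 3 and at 46.6 and 28.1 CPM in TRC replicates 1 and 3. Replicate 1 was the higher library in both groups, and the lowest TRC level was 1.97 times the highest parental level. The means of 10.8 ± 4.95 CPM (SD, n = 2) and 37.3 ± 13.1 CPM (SD, n = 2) gave a 3.47-fold rise (log2 fold change 1.79, SE 0.38, FDR = 8.21e-05). Without TRC replicate 1 the log2 fold change was 1.36 and the FDR rose to 0.0581, the only library whose removal ended a call among the 10 genes. *Sphk2*, which shares 539 of the 2993 exonic bases of *Dbp* on the opposite strand, was at 26.5 and 21.3 CPM in the parental libraries and at 32.3 and 21 CPM in the TRC libraries (log2 fold change 0.15, FDR = 0.794).

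*Nr1d1* (ENSMUSG00000020889, chromosome 11 from 98767932 to 98775333, minus strand), a direct target of CLOCK and BMAL1 like *Dbp*, was at 10.3 and 13.9 CPM in parental replicates 1 and 3 and at 15.5 and 14.6 CPM in TRC replicates 1 and 3. The groups were separated by 1.05-fold, less than the 1.36-fold spread of the parental libraries. The log2 fold change was 0.32 (95% interval −0.27 to 0.90, FDR = 0.599). The ratio of *Dbp* to *Nr1d1* per kilobase was 1.43 and 0.536 in parental cells and 3.09 and 1.98 in TRCs. It was higher in both TRC libraries, but it also varied widely within the parental pair. *Thra*, the thyroid hormone receptor gene that overlaps the end of *Nr1d1* on the opposite strand by 263 exonic bases, was at a mean of 11.4 ± 3.44 CPM (SD, n = 2) in parental cells and rose to 36.9 ± 10.8 CPM in TRCs (log2 fold change 1.69, FDR = 1.87e-05). *Cry2* (295 bases), *Bhlhe40* (118 bases) and *Bhlhe41* (1280 bases) also share exonic bases with a gene on the opposite strand. The strand setting of the counting is not given in the sources used here. Whether reads from the shared bases were assigned to a gene or set aside as ambiguous is thus not known. Ambiguous reads made up 0.825% to 0.955% of a library, and the gene over *Bhlhe41* was not among the genes counted. The antisense genes over *Cry2* and *Bhlhe40*, *D930015M05Rik* and *0610040F04Rik*, had at most 5 counts in any library.

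**Figure D2:**
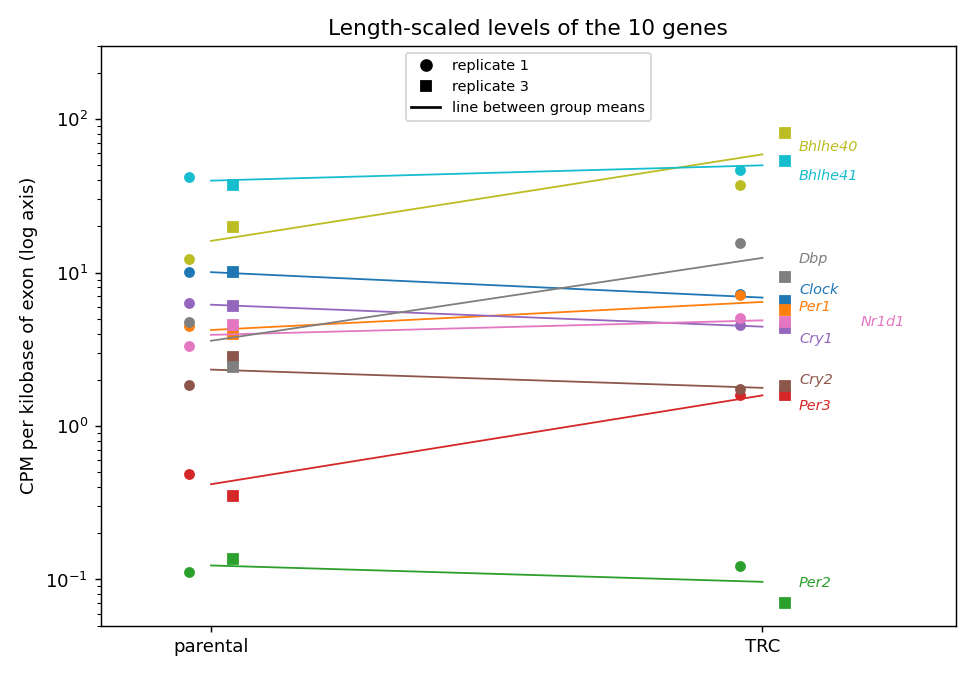
Levels of the 10 genes as CPM per kilobase of exon (log axis), with circles for replicate 1, squares for replicate 3 and lines between the means of the 2 parental and the 2 TRC libraries. *Bhlhe41* and *Bhlhe40* lead in both groups and *Dbp* follows in TRCs with 12.5 CPM per kilobase.

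Levels of different genes were compared per kilobase of exon, with all annotated exons of a gene joined, which understates genes with long alternative exons such as *Clock* (13727 bases). In parental cells the order of mean levels was *Bhlhe41* (39.8 CPM per kilobase), *Bhlhe40* (16.1), *Clock* (10.1), *Cry1* (6.17), *Per1* (4.23), *Nr1d1* (3.93), *Dbp* (3.59), *Cry2* (2.33), *Per3* (0.417) and *Per2* (0.123). The libraries of the 4 genes from *Per1* to *Cry2* overlapped with those of a neighbour in this order, and the others stood apart. In TRCs the order was *Bhlhe40* (58.9), *Bhlhe41* (50), *Dbp* (12.5), *Clock* (6.87), *Per1* (6.44), *Nr1d1* (4.88), *Cry1* (4.44), *Cry2* (1.77), *Per3* (1.58) and *Per2* (0.0965). There *Bhlhe40* overlapped with *Bhlhe41* and *Clock* with *Per1*, while the other neighbours did not overlap. *Dbp* thus went from the seventh place to the third, and relative to *Clock* its level was 0.474 and 0.241 in the parental libraries and 2.15 and 1.44 in the TRC libraries.

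**Figure D3:**
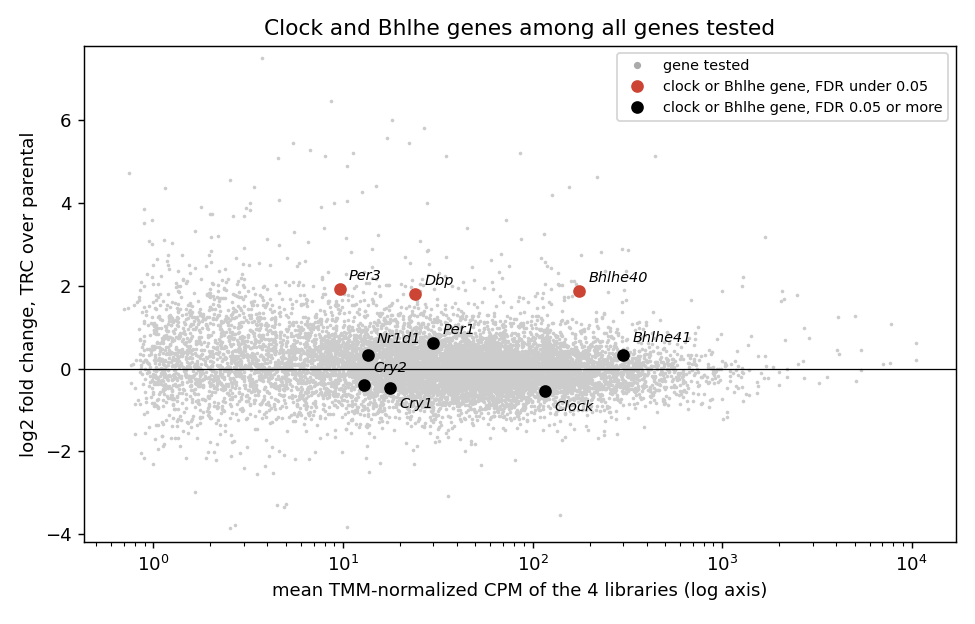
Log2 fold change (TRC over parental, exact test) against the mean TMM-normalized CPM of the 4 libraries (log axis) for the 11483 genes tested (grey) and the 9 clock and *Bhlhe* genes among them, red where FDR was under 0.05. *Bhlhe40*, *Per3* and *Dbp* lie between 1.79 and 1.92 and the other 6 between −0.55 and 0.61.

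Other genes of the clock were taken from 3 lists with 25 genes, of which 22 were tested. In these, 2 genes rose, 2 fell, and 18 did not pass the test, and the median log2 fold change was 0.14. Over all genes tested, 8.81% rose and 7.05% fell, with a median of 0.0034. The other genes of the loop gave 1 of the higher genes and 1 of the lower among 7 tested. *Rora*, which encodes a receptor that opposes NR1D1 at ROR elements, was at 15.3 and 15.0 CPM in parental replicates 1 and 3 and at 44.7 and 75.5 CPM in TRC replicates 1 and 3. Each TRC library thus lay above both parental libraries, and the log2 fold change was 1.99 (SE 0.30, FDR = 1.78e-09). *Nr1d2*, the relative of *Nr1d1*, was at 101 and 100.3 CPM in parental cells and spread from 68.5 to 121 CPM in TRCs on both sides of them (log2 fold change −0.088, FDR = 0.875). *Timeless*, whose protein is known mainly for its role at replication forks, stood at 61.8 ± 4.76 CPM (SD, n = 2) in parental cells and fell to 32.2 ± 1.6 CPM in TRCs (log2 fold change −0.94, FDR = 0.000966), and without TRC replicate 3 its FDR was 0.0636. *Ciart*, an E-box gene that represses the loop, was at 2.11 and 2.1 CPM in parental cells and at 6.62 and 2.81 CPM in TRC replicates 1 and 3 (FDR = 0.106, or 0.0297 with dispersions shrunk to the common value).

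Among the clock outputs, 1 of 6 genes rose, where 8.81% of all genes tested did. It was *Tef*, the relative of *Dbp* that binds the same D-boxes, at 84.2 and 79.2 CPM in parental replicates 1 and 3 and at 153 and 135 CPM in TRC replicates 1 and 3 (log2 fold change 0.82, SE 0.20, FDR = 0.00429). Its FDR was 0.0709 without parental replicate 3 and 0.122 without TRC replicate 1. *Hlf*, the remaining member of that family, was at 3.06 and 3.80 CPM and at 3.42 and 4.88 CPM in the same order of libraries (FDR = 0.743) and was named after its values were seen. *Wee1* (−0.28, FDR = 0.545) and *Noct* (0.33, FDR = 0.574) did not pass the test. Among the 9 genes tested that encode kinases, ubiquitin ligases and cofactors acting on clock proteins, 0 rose in the exact test and 1 fell. The gene that fell was the deacetylase gene *Sirt1* (log2 fold change −0.95, FDR = 0.0407), and 1 of the 9 had an unadjusted p under 0.05. Over all genes tested, 7.05% fell and 28.0% had an unadjusted p under 0.05. The call of *Sirt1* was lost without parental replicate 3 (FDR = 0.247), without TRC replicate 1 (0.101) and without TRC replicate 3 (0.393). The casein kinase genes *Csnk1d* and *Csnk1e*, whose products phosphorylate PER proteins, had log2 fold changes of −0.19 and 0.27 (FDR = 0.633 and 0.529).

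**Figure D4:**
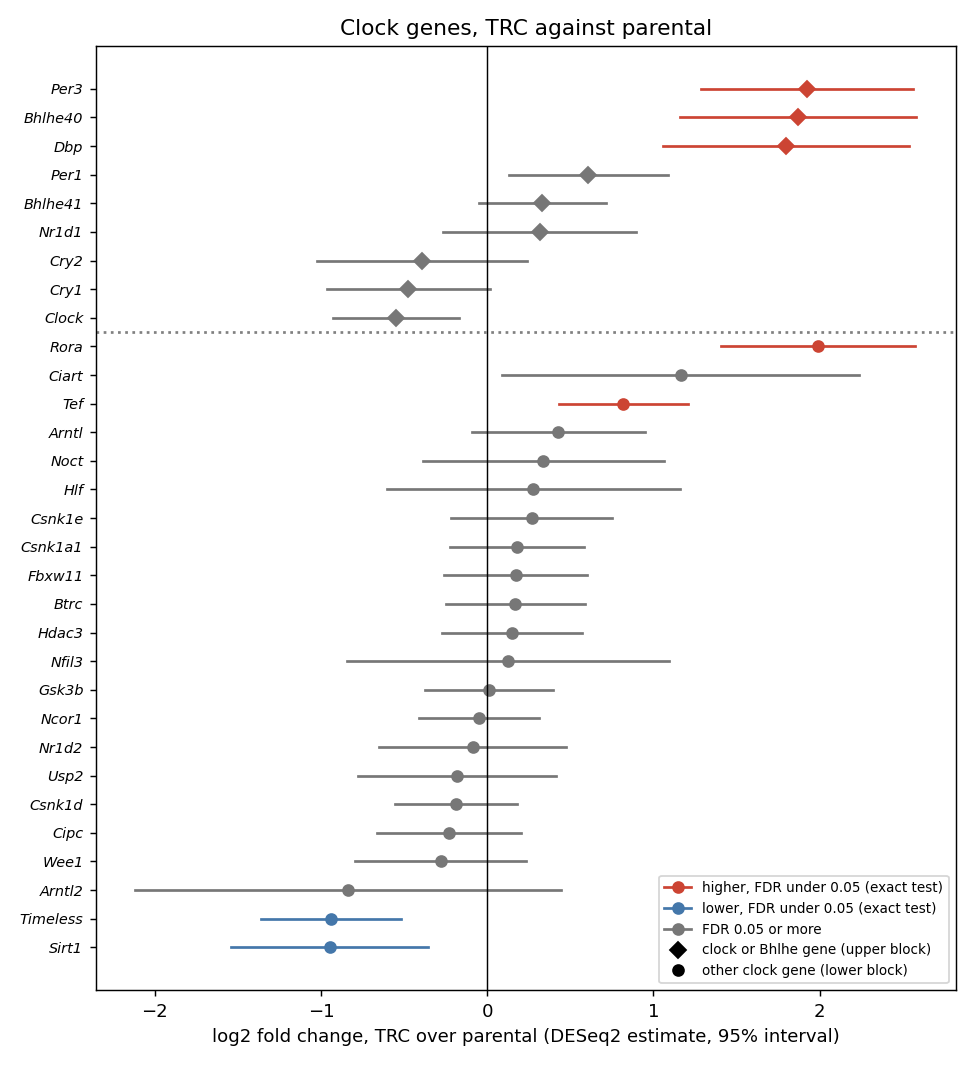
Log2 fold changes (TRC over parental, DESeq2 estimates) with 95% intervals for the 9 tested clock and *Bhlhe* genes (diamonds, above the dotted line) and 22 other clock genes (circles), red or blue where the exact test gave FDR under 0.05. *Per3*, *Bhlhe40*, *Dbp*, *Rora* and *Tef* are red, *Timeless* and *Sirt1* are blue, and the intervals of the other genes are shown in grey.

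Genes of the response to hypoxia and of acute signalling were read beside these values. A short list of 12 hypoxia targets rose in full (median log2 fold change 2.36), and 9 of them without TRC replicate 3. The FDR was smallest for *Bnip3* (5.13), *Ankrd37* (5.58) and *Pdk1* (4.39). This list was written with the hypoxia response of TRCs already known and is no independent evidence of it. *Hif1a* rose as well (log2 fold change 0.96, FDR = 0.00209), except that without TRC replicate 1 the call was lost, while *Epas1* (0.28, FDR = 0.654) and *Arnt* (0.25, FDR = 0.495) did not pass the test. TRC replicate 3 was above TRC replicate 1 in 12 of the 12 hypoxia targets, with a median log2 ratio of replicate 1 to replicate 3 of −0.99, and in 50.1% of all genes tested. The 2 libraries were nearly level in *Ndrg1* of that list (log2 ratio −0.016). *Bhlhe40* was also higher in TRC replicate 3 (log2 ratio −1.12), whereas *Dbp* was lower there and *Per3* was level. The parental pair differed from this, since parental replicate 3 was above parental replicate 1 in 5 of the 12 hypoxia targets (median log2 ratio 0.40). Over all genes tested this share was 50.4%, and *Bhlhe40* was higher in parental replicate 3 (log2 ratio −0.69). Of the 9 clock and *Bhlhe* genes, 3 (*Bhlhe40*, *Bhlhe41* and *Cry2*) were higher in TRC replicate 3. The part of the hypoxia response in any of these differences was not tested.

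**Figure D5:**
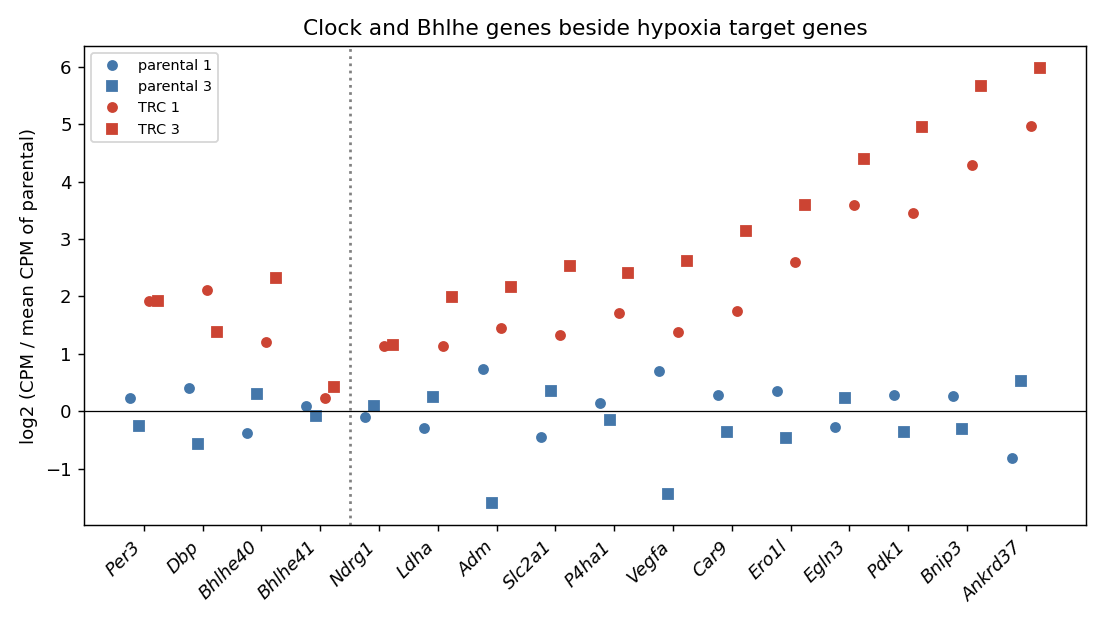
Log2 ratio of each library's CPM to the mean of the parental libraries for *Per3*, *Dbp*, *Bhlhe40* and *Bhlhe41* (left of the dotted line) and 12 hypoxia targets (right), with parental libraries in blue and TRC libraries in red. TRC replicate 3 (red squares) lies above TRC replicate 1 (red circles) in *Bhlhe40* and in 12 of the 12 hypoxia targets, barely so in *Ndrg1*, and below it in *Dbp*.

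The genes most like *Bhlhe40* over the 4 libraries, by Euclidean distance of centred log2 CPM values, were *Maff* (0.15), *Slc2a1* (0.193) and *Pgm1* (0.264). *Slc2a1*, a glucose transporter gene of the hypoxia list, was at 39.0 and 67.7 CPM in parental replicates 1 and 3 and at 134 and 307 CPM in TRC replicates 1 and 3. In the same libraries *Maff* was at 1.98, 3.66, 7.58 and 14.7 CPM and *Pgm1* at 115, 143, 294 and 663.5 CPM. All 3 had the same order of libraries as *Bhlhe40*, which follows from their choice by likeness to it. The genes most like *Bhlhe41* were *Glb1* (0.0327), *Borcs5* (0.0385) and *Ginm1* (0.0419), with log2 fold changes from 0.33 to 0.36. With 4 libraries such likeness is a description of these libraries alone.

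Of the 6 acute response genes, which include genes that the same signals as *Per1* induce, 1 rose, where 8.81% of all genes tested did. It was *Fos*, at 1.38 ± 0.331 CPM (SD, n = 2) in parental cells and at 8.73 ± 2.35 CPM in TRCs (log2 fold change 2.66, FDR = 1.4e-06). The other 5 did not pass the test, among them *Junb* (0.65, FDR = 0.2) and *Nr4a1* (0.49, FDR = 0.225). The log2 fold change was positive for 5 of the 6 and negative for 1, *Ier2* (−0.52, FDR = 0.323). *Mitf* was at 586 and 358 CPM in parental replicates 1 and 3 and at 523 and 570 CPM in TRC replicates 1 and 3, so that its groups overlapped (log2 fold change 0.21, FDR = 0.664). The part of acute signals or of MITF in the clock gene values was not tested.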

How the data were processed

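Per the labels and the methods of the study, the authors trimmed single-end reads of stranded libraries with Trimmomatic 0.35, aligned them to GRCm38 (Ensembl release 75) with TopHat2 2.1.0 and deposited raw htseq-count counts per gene, 1 file per library. Of the 5 summary totals in each file, all set aside here, the largest was alignments that were not unique, 15.2% to 25.2% of a library and most in TRC replicate 3. Symbols, positions and exon lengths came from GENCODE M21 (GRCm38), which holds 37693 of 39179 identifiers.

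Genes with less than 1 CPM in at least 3 samples were removed, leaving 11483. Counts were TMM-normalized and compared with edgeR 4.0.16 (exact test, tagwise dispersions with the default trend, prior count 0.125) in R 4.3.3, and p-values were adjusted over every tested gene after Benjamini and Hochberg (FDR). Standard errors and 95% intervals came from DESeq2 1.42.0, and distances used log2 of CPM plus 0.5. A planning table had named shrinkage to the common dispersion as the main setting and the trend as its alternative. The 2 were exchanged after the data were seen, to follow the function of the study, and no call among the 10 genes depended on it, while among the other clock genes *Ciart* was called with the common dispersion alone. Replicate numbers 1 and 3 come from the labels. Nothing says that the libraries came from separate cultures, so p-values measure the spread between libraries, which may be technical. An exact permutation test of 2 against 2 libraries cannot go below 0.333. Errors from counting and the floor of 3 counts cover counting error only.

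The 10 genes and all lists were chosen with earlier results of these data known, and some genes of the lists are not reported here. Named genes are the 10, the 3 with the smallest FDR of each list, *Arntl*, *Nr1d2* and the 3 genes most like *Bhlhe40* and *Bhlhe41*. Other genes named fall outside this rule and were chosen after their values were seen. They are *Hlf*, *Mitf*, *Npas2*, *Ier2*, *Ndrg1*, genes that overlap the 10, cell type markers outside the 3 and genes given for a turned direction. Alternatives were 3 other filters, 2 normalizations, another dispersion, edgeR's quasi-likelihood test (also with a replicate block), DESeq2's Wald test, a ratio of means, and each library left out in turn, where a lone library is assumed to vary like the others.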

Additional observations from a re-analysis of the deposited data

How the results depend on the processing

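The rises of *Bhlhe40*, *Per3* and *Dbp* were called under every alternative test, filter and normalization, with FDR values up to 0.0274, 0.029 and 0.0301, and the direction of all 9 tested genes was the same under each alternative. The call of *Dbp* was lost without TRC replicate 1, which left 2 to 3 higher genes with each library left out. DESeq2's Wald test called 1 of the 9 lower (*Clock*). Of the other clock genes, 1 was called lower in place of 2 without the filter, with library size only and with the quasi-likelihood test without and with the replicate block, 0 to 2 were called lower with each library left out, and 1 to 2 higher in place of 2. With dispersions shrunk to the common value 3 of them were higher, *Ciart* being added (FDR = 0.0297), and over all genes 1034 were higher and 651 lower in place of 1012 and 810. Over all genes, 567 were higher and 487 lower with the quasi-likelihood test, and 477 and 308 with the replicate block. With each library left out, 500 to 1078 were higher and 269 to 854 lower, with at most 504 and 363 unless it was parental replicate 1. Deviations of same-numbered libraries correlated across genes with r = 0.027, so the numbers 1 and 3 were not taken to pair the libraries. Reads outside any annotated gene made up 4.09% (parental) and 4.25% (TRC) in replicate 1, and 3.25% and 2.95% in replicate 3. Whether the numbers mark a batch was not tested.

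With a library left out, the direction of 8 other clock genes that did not pass the test turned. Their log2 fold changes ranged from −0.57 to 0.26 (*Nr1d2*), −0.088 to 0.11 (*Gsk3b*), −0.055 to 0.34 (*Fbxw11*), −0.018 to 0.28 (*Hdac3*), −0.011 to 0.50 (*Hlf*), −0.46 to 1.11 (*Nfil3*), −0.40 to 0.80 (*Noct*) and −0.45 to 0.024 (*Usp2*). *Gsk3b* was also at −0.020 without the filter and −0.0225 with library size only. The cause was not tested. Depth limits *Per2*, with 17 to 30 counts per library.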
